A study of Homo sapiens with 24 samples.

Results

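The 10 genes described here are spliced noncoding transcripts that carry small nucleolar RNAs (snoRNAs) in their introns: GAS5, SNHG1, SNHG5, SNHG6, SNHG8, SNHG12, SNHG15, SNHG16, ZFAS1 and EPB41L4A-AS1. They were taken from the count table by symbol, through its Ensembl identifiers, and make up 10 of its 60617 genes. All 10 are annotated as long noncoding RNAs, and all 10 passed the filter on low counts that left 15476 genes for testing.
RNA-seq was performed on 686Tu (MDA686TU) cells, a single malignant line from a squamous carcinoma of the head and neck. There were 4 groups of 6 replicate libraries: untreated control, EGCG (a green tea catechin) at 40 µM, resveratrol (a stilbene of grapes) at 15 µM, and the combination at the same doses, each for 24 h. DMSO was the solvent of resveratrol and water that of EGCG. Whether control cells received DMSO is not given in the sources used here, so the effects of resveratrol and of its solvent cannot be told apart. The labels do not say whether replicates were separate cultures on separate days, and the p-values measure the spread between these libraries only.

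A snoRNA host gene makes its main product from its introns. Splicing releases the intron, its ends are trimmed, and the snoRNA that remains guides chemical modification of ribosomal RNA: box C/D snoRNAs guide methylation of the ribose, and box H/ACA snoRNAs guide conversion of uridine to pseudouridine. The spliced exons are exported, and in several hosts they are engaged by ribosomes on short reading frames and then degraded by nonsense-mediated decay (NMD), so that the level of the exons depends on transcription and on translation. Some of these genes start with a run of pyrimidines, the terminal oligopyrimidine (TOP) motif shared with the mRNAs of ribosomal proteins, which mTOR signaling regulates at translation.

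RefSeq placed 36 snoRNA genes inside the 10 hosts, 28 with box C/D names, 7 with box H/ACA names and 1 without a class in its name. GAS5 held 11 of them, SNHG1 held 9, SNHG12 held 4, and SNHG16 and ZFAS1 held 3 each. The GENCODE release 44 transcript marked as canonical was used to read the sequence of each host on GRCh38. The first 30 bases of 8 transcripts are shown because the leading pyrimidines, in capitals, define the TOP motif. SNHG6 is described without sequence.
GAS5: CTTTTCgaggtaggagtcgactcctgtgag
ZFAS1: CTTTCgcgtctgcggtgcccggagtgtggt
SNHG5: gctgcgcacttcggtcttttacgtcggcct
SNHG1: ggcatggtatttaatcgtctccccggggag
SNHG16: gaggtcggccgcgtggctggaagacatggc
SNHG8: Cggaatagcgtcatcagttctataagagag
SNHG15: Cattaggggctcagcgcgtccctccaggcc
EPB41L4A-AS1: Tgtcgggtcccaaaatacgtggtctaaagt
A start of C followed by pyrimidines to at least 5 in all was present in 3 of the 10 hosts (GAS5, ZFAS1 and SNHG12). The share was 4.56% over the 15421 tested genes with a canonical transcript, 76.0% over 79 cytosolic ribosomal proteins and 6.25% over 16 other noncoding snoRNA hosts. The annotated starts differ between sources. RefSeq (GRCh38.p14) had an entry for 8 of the hosts, and its start lay 15 bases downstream for SNHG5 and 1113 bases downstream for SNHG12. For GAS5 it lay 1056 bases upstream, and the RefSeq start of GAS5 had 0 leading pyrimidines. The first bases at the RefSeq starts of SNHG5 and SNHG12, at chr6:85678704-85678733 and chr1:28581844-28581873 on the minus strand, are shown with leading pyrimidines in capitals.
SNHG5 RefSeq start: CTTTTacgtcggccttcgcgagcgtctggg
SNHG12 RefSeq start: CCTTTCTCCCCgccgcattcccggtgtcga
By RefSeq, 3 of 8 hosts had such a start (SNHG5, SNHG12 and ZFAS1), against 4.07% of 35116 promoters, and by either source 4 of these 8 did. The counts are sums over whole genes and do not show which start was used in 686Tu cells.

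The first reading frames of the canonical transcripts, from the first ATG to the first stop codon in frame, were short in every host. They held 3 codons in SNHG15, 5 in SNHG12, 12 in SNHG5, 19 in SNHG6, 25 in ZFAS1, 26 in EPB41L4A-AS1, 33 in SNHG16, 50 in GAS5, 52 in SNHG8 and 57 in SNHG1. The first ATG was at base 114 in SNHG12 and base 4 in SNHG1. Their RefSeq starts lie 1113 and 37 bases downstream of the canonical ones, so transcripts that begin there lack these frames. The frames of 4 hosts are shown, with the start and stop codons in capitals, because their length sets where a ribosome that starts at the first ATG would stop.
SNHG15: ATGccccggTAA
SNHG12: ATGgtctcgatctccTGA
SNHG5: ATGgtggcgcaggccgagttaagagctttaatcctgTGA
ZFAS1: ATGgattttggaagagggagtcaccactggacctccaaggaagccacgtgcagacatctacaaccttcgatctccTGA
In the canonical transcripts of all 10 hosts at least 1 exon junction lay more than 50 bases downstream of this stop. This arrangement is known to expose a translated transcript to NMD. SNHG1 had 7 such junctions, and GAS5, SNHG5 and SNHG12 had 5 each. The same arrangement was present in 36.4% of the tested genes, 77.5% of 764 tested lncRNA genes with at least 2 exons, 81.3% of the 16 other noncoding hosts and 6.33% of the ribosomal proteins. The 10 hosts thus shared it with most other spliced lncRNAs and with few ribosomal protein mRNAs.

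**Figure D1:**
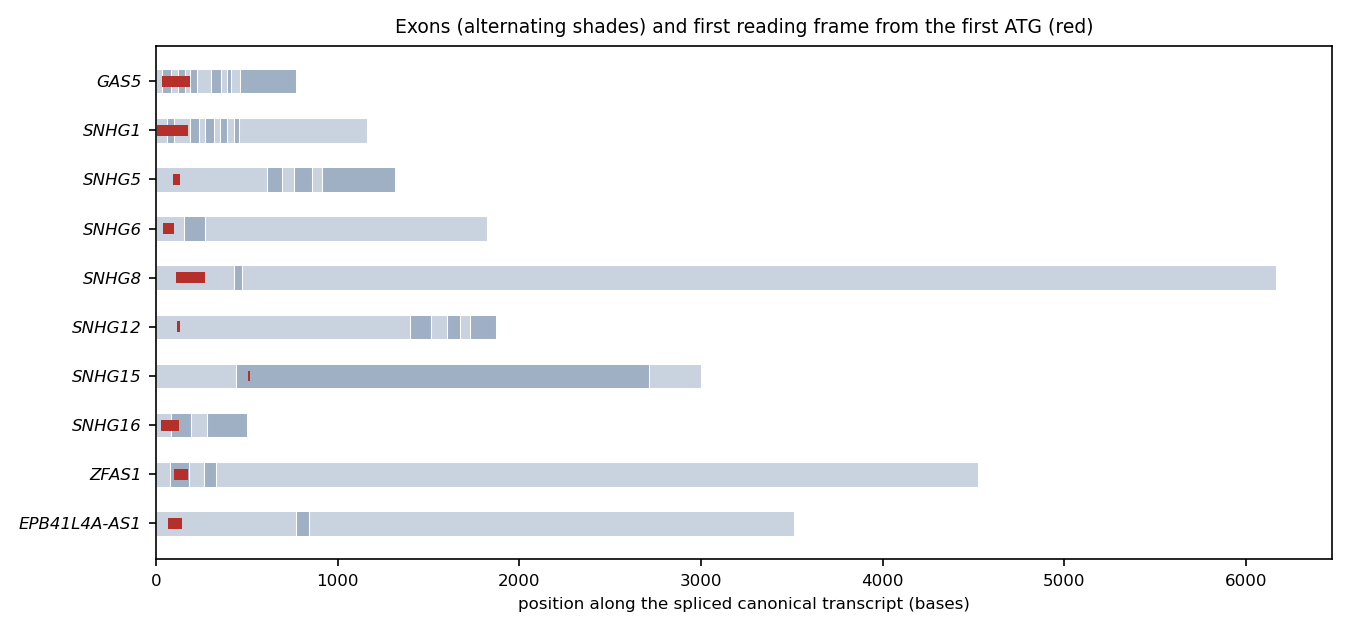
Exons of the canonical transcript of each host in alternating shades and the first reading frame in red, against the position along the spliced transcript in bases. The red frame ends ahead of the last exon in all 10 hosts, and its length runs from 3 codons in SNHG15 to 57 in SNHG1.

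The libraries held between 7034872 and 11735574 counts. The squamous epithelial markers KRT5, KRT14, KRT6A, TP63, CDH1, EPCAM and SFN were present in every library at 1492 or more raw counts. PTPRC, PECAM1, DCN and ALB were at 0 or 1 count and MLANA at 0 to 4, while COL1A1 was at 753 to 1951. The mitochondrial share of a library was 0.249% to 0.326% for replicates 1 to 3 of the groups and 0.448% to 0.775% for replicates 4 to 6. The labels name no batch, so values within each set of 3 are given where they change a call. Levels are given as CPM, the count of a gene scaled by the library total and edgeR's TMM factor. Changes are log2 fold changes of edgeR's quasi-likelihood test with its standard error (SE), and a gene was called when its Benjamini-Hochberg adjusted p over all genes was under 0.1 and its p under 0.05.

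Together the 10 hosts took a small part of the libraries. Their share of all counts had a median of 0.0745% in the control (0.0700% to 0.0766%) and 0.0738% with EGCG (0.0709% to 0.0776%). It was 0.0632% with resveratrol (0.0583% to 0.0654%) and 0.0655% with the combination (0.0625% to 0.0690%). Every library with resveratrol, alone or in the combination, lay below every library without it.
Per length, in the authors' FPKM, SNHG1 was the most abundant host in the control with a median of 40.9 (39.6 to 44.6), followed by GAS5 at 25.7 (22.2 to 26.7). SNHG5 at 16.5 (15.2 to 19.0) and ZFAS1 at 16.4 (15.8 to 17.6) overlapped. So did SNHG16 at 14.1 (13.2 to 15.1), SNHG15 at 13.1 (12.5 to 13.7) and SNHG6 at 12.8 (11.2 to 15.1). SNHG8 at 3.83 (3.44 to 4.15) and SNHG12 at 3.48 (3.12 to 4.06) overlapped as well, and EPB41L4A-AS1 was lowest at 2.10 (1.91 to 2.54). The length behind these FPKM values was close to the union of all annotated exons for most hosts. For GAS5 it was 4842 bases, against 768 bases in the canonical spliced transcript, so the order depends on this choice of length.

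Resveratrol lowered 9 of the 10 hosts and raised none. Of all tested genes, 28% were called lower in the same comparison and 28.9% higher. The log2 fold changes ran from -0.55 for SNHG12 to -0.15 for SNHG6, with a median of -0.31, where the median over all tested genes was 0.00. The combination also lowered 9 of 10, where 29.9% of all genes were called lower and 29.9% higher, with a median of -0.31. For 7 hosts all 6 resveratrol libraries lay below all 6 control libraries, a pattern seen for 15.8% of tested genes. With the combination this held for 6 hosts, against 16.3% of genes. EGCG alone lowered 1 host, SNHG12, where 0.859% of all genes were called lower. The comparisons of EGCG, resveratrol and the combination with the control use the same 6 control libraries, so they are not independent of each other. Scaling by library size alone called 8 hosts lower with resveratrol and 8 with the combination. Under that scaling the calls over all genes shifted from 4466 higher and 4341 lower to 6147 and 2857 for resveratrol, and from 4633 and 4625 to 6041 and 3311 for the combination.

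**Figure D2:**
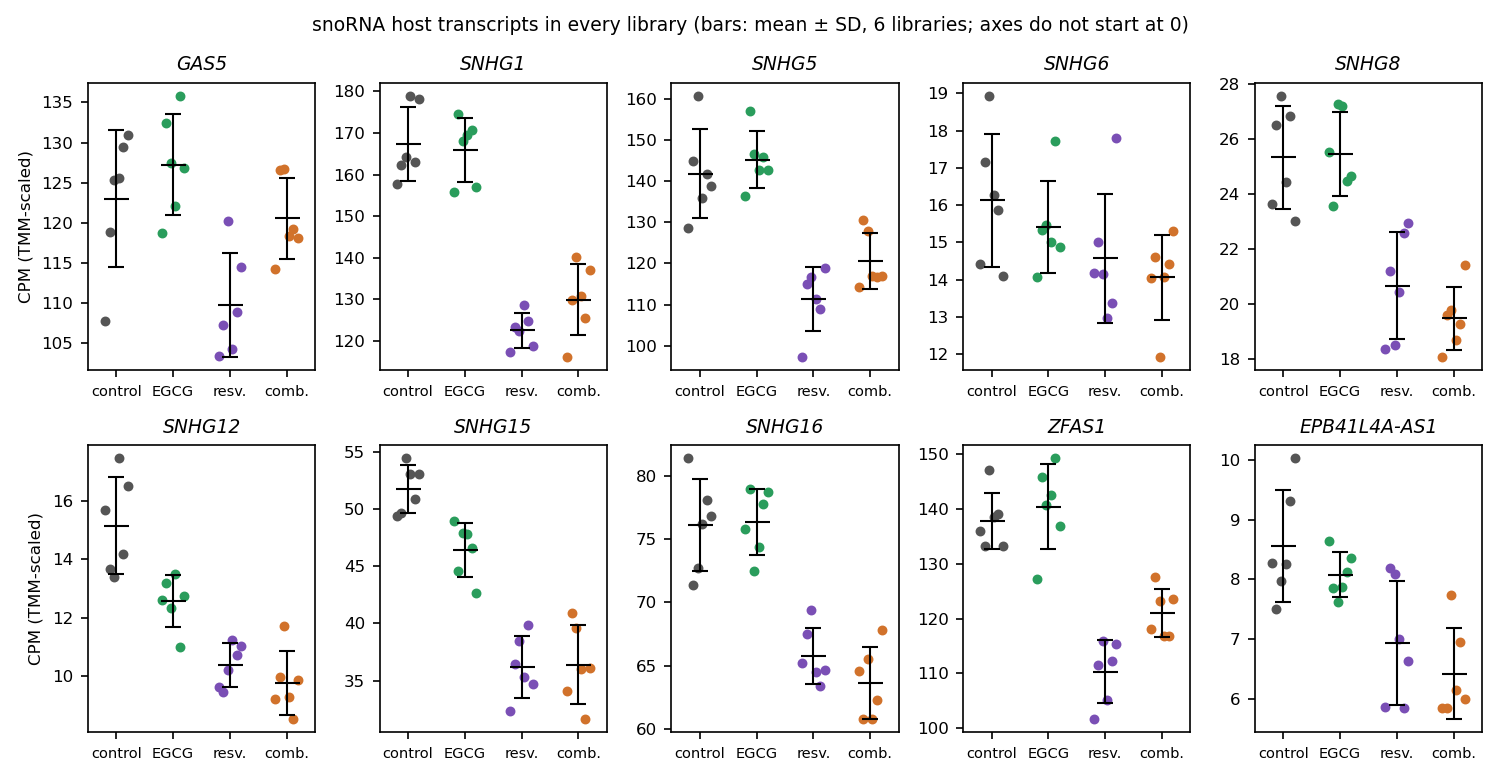
Level of each host in CPM (vertical axes, which do not start at 0) in the 6 libraries of each group, with the mean and SD as bars. SNHG1 lay at 117 to 129 CPM with resveratrol against 158 to 179 CPM in the control, while the groups of SNHG6 overlapped.

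SNHG1 had the highest FPKM of the 10 hosts, a rank that depends on the length used, and fell with resveratrol and with the combination. It carries the SNORD22 and SNORD25 to SNORD31 snoRNAs (chr11:62851978-62855953, minus strand). Its control libraries ranged from 157.7 to 178.9 CPM with a median of 163.6, and the EGCG libraries from 155.8 to 174.6 with a median of 168.7. The resveratrol libraries ranged from 117.3 to 128.7 with a median of 122.8, and the combination libraries from 116.1 to 140.3 with a median of 130.3. All 12 libraries with resveratrol were below all 12 without it. SNHG1 fell by 26.8% with resveratrol (log2 fold change -0.45, SE 0.04, adjusted p = 1.1e-11) and fell by 22.3% with the combination (-0.36, SE 0.04, adjusted p = 1.4e-09). With EGCG the difference was -0.01 (95% interval -0.09 to 0.07).

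GAS5 (growth arrest specific 5, chr1:173858559-173868882, minus strand), the host of 10 box C/D snoRNAs and 1 of the H/ACA class, moved least among the hosts called with resveratrol. It ranged from 107.8 to 131.0 CPM in the control with a median of 125.4, and from 118.8 to 135.8 with EGCG with a median of 127.1. With resveratrol it ranged from 103.4 to 120.2 with a median of 108.0, and with the combination from 114.3 to 126.7 with a median of 118.8. The groups overlapped in each comparison with the control. GAS5 fell by 10.7% with resveratrol (-0.16, SE 0.04, adjusted p = 0.0020). With the combination the difference was -0.03 (95% interval -0.11 to 0.06, adjusted p = 0.61). The GAS5 call with resveratrol was lost under scaling by library size (-0.08, adjusted p = 0.15) and within replicates 1 to 3 (-0.09, adjusted p = 0.28), and kept within replicates 4 to 6 (-0.24, adjusted p = 0.00010). With the combination GAS5 was at 0.06 within replicates 1 to 3 and at -0.12 within replicates 4 to 6 (adjusted p = 0.043), and at 0.06 under scaling by library size.

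ZFAS1, which starts beside the ZNFX1 promoter and carries the SNORD12 snoRNAs (chr20:49278178-49299600, plus strand), fell with resveratrol and fell less far with the combination. Its control libraries ranged from 133.2 to 147.1 CPM with a median of 137.2, and the EGCG libraries from 127.3 to 149.3 with a median of 141.7. The resveratrol libraries ranged from 101.6 to 116.0 with a median of 112.0, and the combination libraries from 116.8 to 127.7 with a median of 120.6. The resveratrol and combination groups each lay below the control and did not overlap each other. ZFAS1 fell by 19.98% with resveratrol (-0.32, SE 0.04, adjusted p = 9.8e-09) and fell by 12.2% with the combination (-0.19, SE 0.04, adjusted p = 9.8e-05).

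SNHG5, the host of SNORD50A and SNORD50B (chr6:85650491-85678932, minus strand), followed the same order. Its medians were 140.3 CPM in the control (128.5 to 160.6) and 144.3 with EGCG (136.2 to 157.1). They were 113.3 with resveratrol (97.3 to 118.9) and 116.9 with the combination (114.4 to 130.6). The resveratrol libraries lay below all controls, and 1 combination library reached into the control range. SNHG5 fell by 21.4% with resveratrol (-0.35, SE 0.05, adjusted p = 1.1e-07) and fell by 14.9% with the combination (-0.23, SE 0.05, adjusted p = 7.5e-05).
SNHG16, the host of SNORD1A, SNORD1B and SNORD1C (chr17:76557727-76670985, plus strand), had a median of 76.5 CPM in the control (71.3 to 81.4) and 76.8 with EGCG (72.4 to 79.0). It had 64.9 with resveratrol (63.4 to 69.4) and 63.4 with the combination (60.8 to 67.8). Both groups with resveratrol lay below all controls. SNHG16 fell by 13.5% with resveratrol (-0.21, SE 0.04, adjusted p = 2.1e-05) and fell by 16.4% with the combination (-0.26, SE 0.04, adjusted p = 7.3e-07).

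SNHG6, the host of SNORD87 on chromosome 8, was the one host not called with resveratrol, at a mean of 132 raw counts per library. Its medians were 16.1 CPM in the control (14.1 to 18.9), 15.2 with EGCG (14.1 to 17.7), 14.2 with resveratrol (13.0 to 17.8) and 14.2 with the combination (11.9 to 15.3). The groups overlapped in every comparison. With resveratrol SNHG6 was at -0.15 (95% interval -0.31 to 0.01, adjusted p = 0.13). It was called without resveratrol replicate 6, its highest library in that group (-0.21, adjusted p = 0.033), without control replicate 1 (adjusted p = 0.079) or without control replicate 6 (adjusted p = 0.067). With the combination SNHG6 was called lower (-0.20, SE 0.08, adjusted p = 0.039). This call was lost without combination replicate 3 (-0.15, adjusted p = 0.13), without control replicate 3 (-0.15, adjusted p = 0.14), under scaling by library size (-0.12, adjusted p = 0.24) and within replicates 4 to 6 alone (-0.07, adjusted p = 0.65).

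SNHG12, which carries 3 box H/ACA snoRNAs and SNORD99 (chr1:28578538-28583132, minus strand), had the largest fold change among the hosts and was the one host called with EGCG. It ranged from 13.4 to 17.5 CPM in the control with a median of 14.9, and from 10.99 to 13.5 with EGCG with a median of 12.7. With resveratrol it ranged from 9.46 to 11.2 with a median of 10.5, and with the combination from 8.52 to 11.7 with a median of 9.59. The EGCG libraries just overlapped the control, and both groups with resveratrol lay below all controls. SNHG12 fell by 31.7% with resveratrol (-0.55, SE 0.08, adjusted p = 5.5e-07) and fell by 35.1% with the combination (-0.62, SE 0.08, adjusted p = 7.0e-08).
With EGCG alone SNHG12 fell by 17.7% (-0.28, SE 0.08, adjusted p = 0.075). The EGCG call of SNHG12 was lost with DESeq2 (adjusted p = 0.12), without a filter on low counts (adjusted p = 0.17), with only the control and EGCG libraries in the fit (adjusted p = 0.10), and within replicates 1 to 3 (-0.17) or 4 to 6 alone (-0.40). It was also lost without control replicates 1, 4 or 6 or without EGCG replicates 1, 3 or 5, each left out alone, with adjusted p between 0.12 and 0.23.

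SNHG15, SNHG8 and EPB41L4A-AS1 each carry a single box H/ACA snoRNA. SNHG15 (chr7:44983019-44986961, minus strand; SNORA9) had a median of 52.0 CPM in the control (49.4 to 54.5) and 47.2 with EGCG (42.6 to 49.0). It had 35.9 with resveratrol (32.3 to 39.9) and 36.1 with the combination (31.6 to 40.9). None of the treated groups overlapped the control, the EGCG group included, a pattern that EGCG gave for 0.801% of tested genes. SNHG15 fell by 30.1% with resveratrol (-0.52, SE 0.05, adjusted p = 3.0e-10) and fell by 29.5% with the combination (-0.50, SE 0.05, adjusted p = 5.5e-10). With EGCG it was at -0.15 (SE 0.05, adjusted p = 0.18 over all genes in edgeR), and it passed the limit when only the control and EGCG libraries were fitted (adjusted p = 0.095).
SNHG8 (chr4:118278703-118285316, plus strand; SNORA24) had a median of 25.5 CPM in the control (23.03 to 27.5), 25.1 with EGCG (23.5 to 27.2), 20.8 with resveratrol (18.4 to 22.95) and 19.4 with the combination (18.1 to 21.4). Neither group with resveratrol overlapped the control, whose lowest library was at 23.03 CPM. SNHG8 fell by 18.5% with resveratrol (-0.30, SE 0.06, adjusted p = 1.8e-04) and fell by 22.9% with the combination (-0.38, SE 0.07, adjusted p = 7.4e-06). Within replicates 4 to 6 alone the resveratrol difference of SNHG8 was -0.17 (adjusted p = 0.13).
EPB41L4A-AS1 (chr5:112160526-112164818, plus strand; SNORA13) had the fewest reads, 66.2 raw counts per library on average. Its medians were 8.26 CPM in the control (7.50 to 10.0), 8.001 with EGCG (7.63 to 8.64), 6.81 with resveratrol (5.85 to 8.19) and 6.08 with the combination (5.85 to 7.74), and the groups overlapped. EPB41L4A-AS1 fell by 18.2% with resveratrol (-0.29, SE 0.10, adjusted p = 0.013) and fell by 24.5% with the combination (-0.41, SE 0.10, adjusted p = 8.9e-04). Within replicates 1 to 3 these EPB41L4A-AS1 differences were -0.09 (adjusted p = 0.66) and -0.27 (adjusted p = 0.16), and within replicates 4 to 6 they were -0.50 (adjusted p = 0.0045) and -0.53 (adjusted p = 0.0027).

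**Figure D3:**
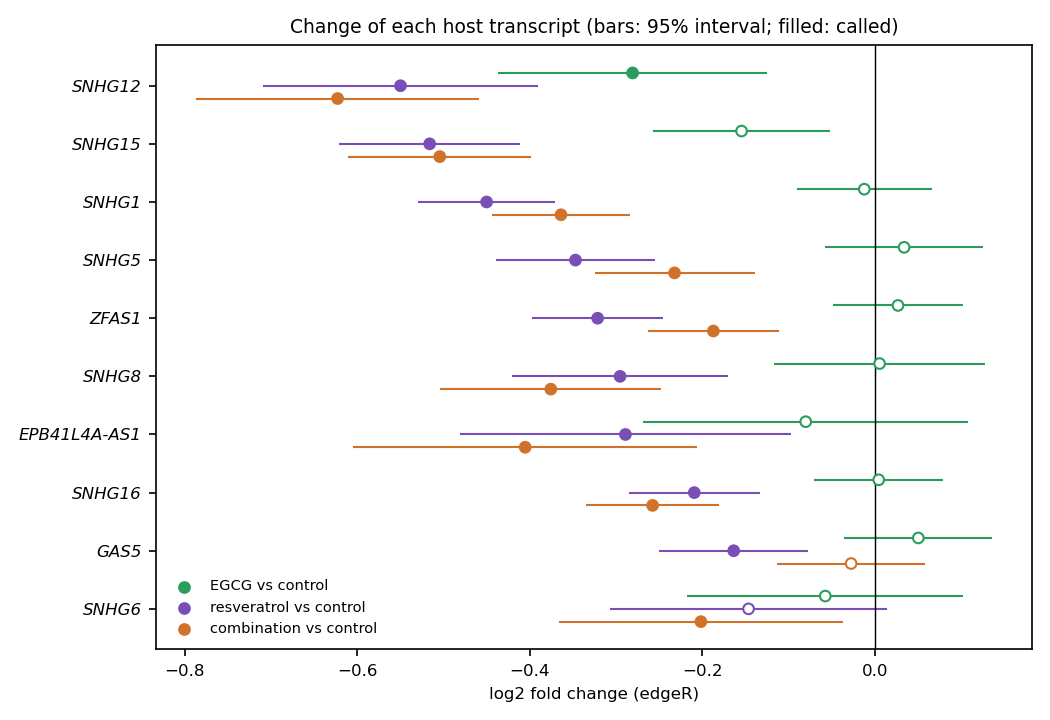
Log2 fold change of each host against the untreated control with its 95% interval, for EGCG, resveratrol and the combination, with filled points for called changes. The resveratrol points run from -0.55 (SNHG12) to -0.15 (SNHG6), and 1 EGCG point is filled, that of SNHG12 at -0.28.

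The next question was what EGCG added to resveratrol. The combination against resveratrol gave 2 hosts called higher, GAS5 and ZFAS1, and none lower, where 4.01% of all genes were called higher. GAS5 was at 0.14 (SE 0.04, adjusted p = 0.066) and ZFAS1 at 0.13 (SE 0.04, adjusted p = 0.038), and for ZFAS1 all 6 combination libraries lay above all 6 resveratrol libraries, as for 1.78% of genes. SNHG5 at 0.11 (95% interval 0.02 to 0.21, adjusted p = 0.18) and SNHG1 at 0.09 (95% interval 0.01 to 0.17, adjusted p = 0.26) did not pass. SNHG1 passed when combination replicate 1 was left out (0.12, adjusted p = 0.094). The other 6 hosts were between -0.12 and 0.01.
Neither call was kept within replicates 1 to 3 or 4 to 6 alone, where GAS5 was at 0.15 and 0.12 and ZFAS1 at 0.16 and 0.10. Without resveratrol replicate 1 both calls were lost (ZFAS1 adjusted p = 0.12, GAS5 adjusted p = 0.16). The GAS5 call was also lost without resveratrol replicate 2, 4 or 5 or combination replicate 2 or 3, with adjusted p between 0.11 and 0.14.

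The combination was also compared with EGCG alone, to show what resveratrol added. It lowered 8 of 10 hosts, where 29.1% of all genes were called lower, and for 5 hosts the groups did not overlap, where 14% of genes showed this. The values ran from -0.38 for SNHG8 to -0.08 for GAS5, with a median of -0.30. SNHG6 at -0.14 (adjusted p = 0.15) and GAS5 at -0.08 (adjusted p = 0.14) were the hosts that did not pass. GAS5 passed without combination replicate 3 (-0.09, adjusted p = 0.078) and within replicates 4 to 6 alone (-0.12, adjusted p = 0.041). EPB41L4A-AS1 (-0.33, adjusted p = 0.0079) did not pass within replicates 1 to 3 alone (-0.30, adjusted p = 0.13). Under scaling by library size the calls over all genes in this comparison moved from 4440 higher and 4510 lower to 5737 and 3250.
EGCG against the control and the combination against resveratrol share no library, and both measure EGCG. The values had the same sign for 6 of 10 hosts. SNHG12 was at -0.28 in the control background and -0.07 beside resveratrol, and SNHG15 was at -0.15 and 0.01. The interaction, which tests whether the change with both agents differs from the sum of the separate log2 changes, called none of the 10 hosts in edgeR or in DESeq2, where edgeR called 0.265% of all genes. At an unadjusted p under 0.05, edgeR gave 1 host, SNHG15 (0.17, SE 0.08, adjusted p = 0.61), and 1195 of all genes. The 95% interval of SNHG12 ran from -0.03 to 0.44, and that of ZFAS1 from 0.00 to 0.22, so changes of this size were not resolved with 6 libraries per group. Apart from SNHG12 and SNHG15, the 95% intervals of the EGCG differences against the control lay between -0.27 and 0.14.

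**Figure D4:**
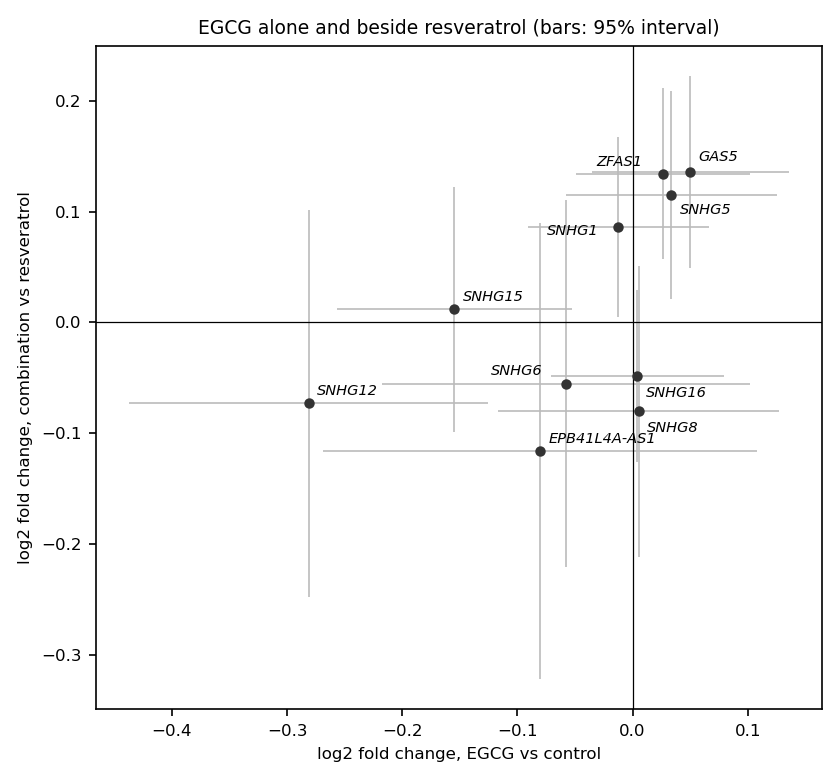
Log2 fold change with EGCG against the control (horizontal) and with the combination against resveratrol (vertical) for the 10 hosts, with 95% intervals. GAS5 and ZFAS1 lie highest at 0.14 and 0.13 on the vertical axis, and SNHG12 lies farthest left at -0.28.

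All hosts but SNHG15 overlap another annotated gene or have one starting within 1 kb, and the strand setting of the counting is not given in the sources used here, so reads in the overlaps are of uncertain origin. SNHG1 is head to head with SLC3A2, the heavy chain of amino acid transporters, with the outer bounds of the gene records 51 bases apart and no overlap. The window around both starts (RefSeq promoter of SNHG1, chr11:62855836-62856135 on GRCh38.p14, minus strand) is shown because the same 300 bases hold the annotated starts of both genes. The SNHG1 record begins at base 183, its canonical transcript at base 214 and the RefSeq transcript at base 251, and SLC3A2 begins at base 132 on the other strand. The capitals mark TATAAA, which lies on the other strand and downstream of the RefSeq start of SNHG1.
SNHG1 window: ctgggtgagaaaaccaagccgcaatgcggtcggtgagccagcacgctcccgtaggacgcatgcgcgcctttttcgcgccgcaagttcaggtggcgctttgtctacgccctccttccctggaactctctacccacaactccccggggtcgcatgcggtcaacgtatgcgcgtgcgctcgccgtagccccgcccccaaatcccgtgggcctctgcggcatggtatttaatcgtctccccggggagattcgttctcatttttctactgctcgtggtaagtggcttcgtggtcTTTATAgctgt
SLC3A2 fell with resveratrol (-0.39, adjusted p = 2.4e-14) and with the combination (-0.35), beside -0.45 and -0.36 for SNHG1. With EGCG it was at -0.08 (adjusted p = 0.21). Searched on both strands, TATAAA was in 1 of the 8 host promoters with an entry (SNHG1) and in 11.5% of 35116 promoters. The exact string misses variants such as TATATAA, which lies upstream of the RefSeq starts of SNHG5, SNHG12 and ZFAS1. That variant was not counted over all promoters. CCAAT was in 2 of the 8 (SNHG5 and GAS5, the latter at its upstream RefSeq start) and in 34.6% of all promoters. The E-box CACGTG was in none of the 8 windows and in 7.26% of all promoters, and the cAMP response element TGACGTCA was in none and in 1.85%. The same held for part of an ETS site, TTTCCGG, in 4.31% of promoters, for the composite site of CEBP and ATF factors, TGATGNAA, in 3.62%, and for the core of the antioxidant response element, TGACNNNGC, in 13.4%.
ZNFX1, whose start lies 248 bases from that of ZFAS1 on the other strand with 249 bases of overlap, rose with resveratrol (0.14, adjusted p = 0.0076) and the combination (0.15), while ZFAS1 fell. ST6GALNAC2, on the strand opposite SNHG16 and overlapping its span, rose with resveratrol (1.14) and the combination (0.95) while SNHG16 fell. PRSS12, which overlaps SNHG8 by 5279 bases at 92.3 raw counts per library, fell with resveratrol (-0.48) and the combination (-0.26). TRNAU1AP, which overlaps SNHG12 by 8 bases, was at -0.15 with resveratrol (adjusted p = 0.065), and ZBTB37, which overlaps GAS5 by 801 bases, was at -0.21 (adjusted p = 0.14). Other overlapping genes, among them EPB41L4A and a gene on the same strand over SNHG5 (ENSG00000271793), did not pass the filter on low counts. The part of overlapping reads in these values was not tested.

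The snoRNAs themselves were not measured in these mRNA libraries. The count table has 30 snoRNA genes inside the 10 hosts, and none had a count in any of the 24 libraries. Of all 941 snoRNA genes listed, 96 had a count, and their counts summed to 1447 over the 24 libraries. The values above therefore refer to the spliced hosts and not to the snoRNAs made from their introns.

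Other snoRNA hosts and the machinery around them were examined as lists, whose counts are descriptions against the shares given above for all genes. The noncoding hosts outside the 10 were called lower for 10 of 16 with resveratrol (median -0.31) and for 9 of 16 with the combination (median -0.26), with 0 and 2 called higher. The 2 that rose with the combination were SNHG14 (0.24) and SNHG32 (0.19). SNHG4 (-1.17), SNHG3 (-1.01), DANCR (-0.91) and SNHG10 (-0.86) had the largest changes with the combination, each beyond any of the 10. Among protein-coding hosts outside the ribosome, 16 of 16 fell with resveratrol (median -0.32) and 14 of 16 with the combination (median -0.36), where EEF2 and TNPO2 did not pass. Among these were EIF4A1, an RNA helicase of translation initiation (-0.92 with the combination, at 31 to 99 raw counts over the control and combination libraries and with pseudogenes that can take its reads), HSPA8, a chaperone (-0.70), NOP56, a box C/D snoRNP protein (-0.66), and WDR43, a factor of the small ribosomal subunit (-0.61). Hosts with a coding frame were thus lower as well as those without.
The snoRNP proteins fell in 8 of 8 genes with resveratrol (median -0.34) and in 8 of 8 with the combination (median -0.42). NOP56 (-0.66), the methyltransferase FBL (-0.59), the pseudouridine synthase DKC1 (-0.54) and GAR1 (-0.47) led with the combination. Of 8 snoRNP assembly factors, 7 fell with resveratrol (median -0.19) and 6 with the combination (median -0.29), with RUVBL1 at -0.40 and NUFIP1 at -0.39. NOP56 and DKC1 are counted both as snoRNP proteins and as hosts.
The cytosolic ribosomal proteins, the main TOP mRNAs, fell in 78 of 79 genes with resveratrol (median -0.25) and in 75 of 79 with the combination (median -0.22). With EGCG 0 of 79 were called (median 0.01). RPL17 (-0.56) and RPL36A (-0.43) had the largest changes with the combination, and RPL41 (0.03, adjusted p = 0.52), RPS27, RPL13 and RPS21 did not pass. Regulators of TOP mRNAs went in both directions: 3 of 10 were called higher and 4 lower with resveratrol, and the same numbers with the combination. With the combination EIF4EBP1 and EIF4EBP2, which restrain cap-dependent initiation, were at 0.37 and 0.36, and LARP1 and CNBP, which bind TOP mRNAs, were at -0.32 and -0.31.

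Genes of NMD itself were called in both directions with resveratrol and only higher with the combination. Of all tested genes, 28.9% were called higher and 28% lower with resveratrol, and 29.9% in each direction with the combination. Of 10 NMD factors, 2 rose (UPF3B and SMG5) and 1 fell (SMG6) with resveratrol (median 0.01), and 4 rose and 0 fell with the combination (median 0.03). UPF3B (0.33), SMG9 (0.25), SMG5 (0.20) and UPF1 (0.12) were those that rose with the combination. Of 8 coding transcripts known as NMD targets, 5 rose and 2 fell (GADD45B and TBL2) with resveratrol (median 0.09), and 6 rose and 1 fell (TBL2) with the combination (median 0.22). ATF3 (1.80 with the combination), DDIT3 (1.08) and GADD45A (0.54) led this list, and they are also genes of the stress response. The medians of the 10 hosts and of the coding NMD targets had opposite signs in both comparisons. Whether NMD activity changed was not tested.

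**Figure D5:**
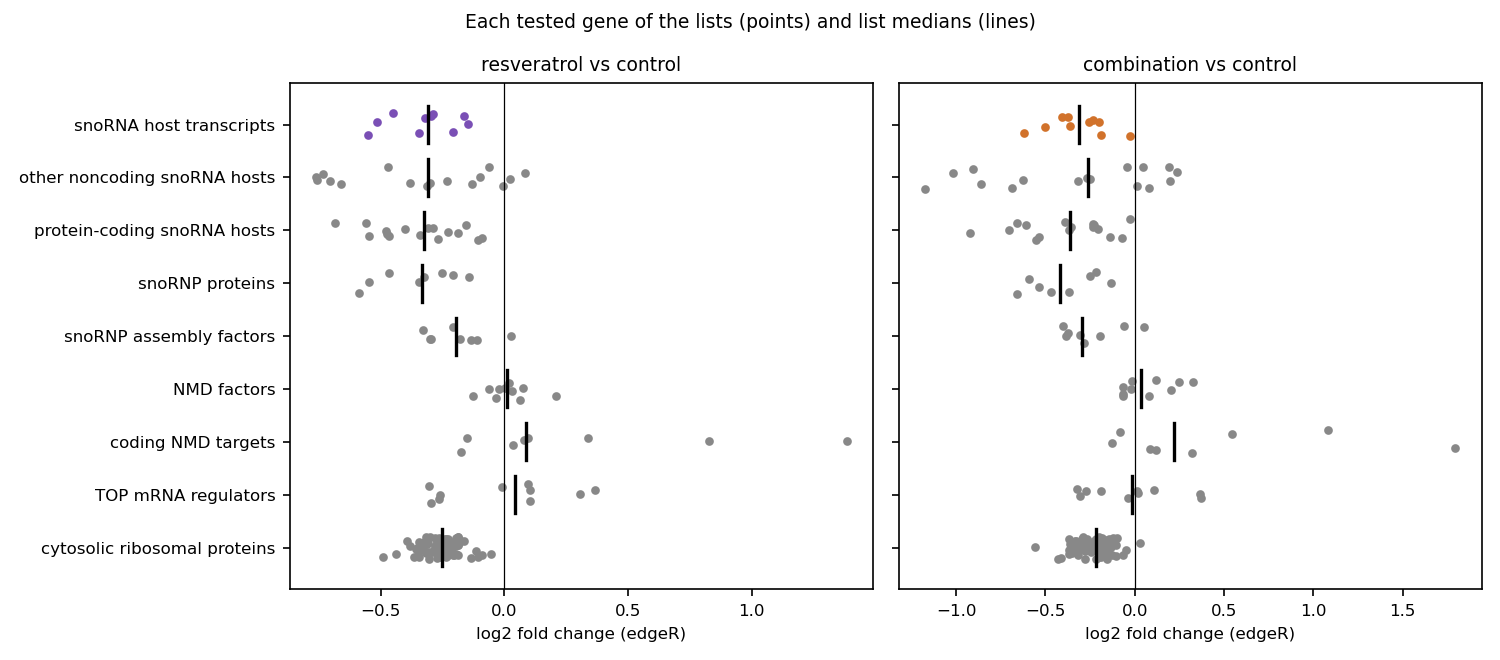
Log2 fold change of every tested gene in each list (points) with the list median (line), for resveratrol and the combination against the control. The medians of the snoRNA hosts and snoRNP proteins lie between -0.42 and -0.26, and those of the NMD factors and coding NMD targets lie above 0.

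The hosts varied together to different degrees. Pearson's r of the log2 CPM of each host with the mean of the other 9 over the 24 libraries, which share the 4 groups, was 0.94 for SNHG1 and 0.91 for ZFAS1, SNHG5 and SNHG15. It was 0.83 for SNHG16 and SNHG8, 0.78 for SNHG12, 0.71 for EPB41L4A-AS1, 0.64 for GAS5 and 0.46 for SNHG6. Outside the hosts, the genes whose log2 CPM followed the mean of the 10 hosts most closely were EIF4A1P2 (r = 0.965), S100A2 (0.958), EIF4A1P10 (0.958), EBNA1BP2 (0.958) and RPL22P1 (0.958). EIF4A1P2, EIF4A1P10 and RPL22P1 are pseudogenes whose reads can come from their parent genes. EBNA1BP2, a factor of the large ribosomal subunit, was at -0.58 with resveratrol and S100A2, a calcium-binding protein of squamous cells, at -0.63.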

How the data were processed

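RNA-seq of 686Tu cells was analysed in 4 groups of 6 libraries. The authors prepared stranded mRNA libraries (TruSeq), trimmed reads with Trimmomatic 0.36 and aligned them to GRCh38 with HISAT2 2.0.4, as their processing notes list. The counting program, annotation and strand setting are not given in the sources used here. The authors deposited raw counts per gene, used for all tests. The table of normalized counts that the authors deposited (a signal) equalled the raw counts divided by DESeq2 size factors in 24 of 24 libraries (relative tolerance 1e-06). The deposited FPKM values are these divided by a length per gene and were used for levels between genes. Columns without a sample numbered 0.
Library totals were 7034872 to 11735574 counts. Of 60617 genes, 60261 had an annotated symbol. The filterByExpr function of edgeR kept 15476 of the 33693 genes with any count. All 24 libraries entered a single quasi-likelihood fit (edgeR 4.0.16, R 4.3.3, TMM), with 5 pairwise comparisons and the interaction. Adjusted p was Benjamini-Hochberg over all genes, and calls needed adjusted p under 0.1 and p under 0.05. The SE was the absolute log2 fold change divided by the square root of F, and 95% intervals were 1.96 SE wide on either side. Log2 CPM used a prior count of 2. On simulated data of 15317 genes for resveratrol against control, edgeR called 97 of 100 genes changed by 1 on the log2 scale. It called 80 of 100 changed by 0.5, with 15 false calls. The simulation changed 200 genes, far fewer than the 8807 called with resveratrol, so these rates do not carry over to the data.
The members, lists, tests and alternatives were chosen with earlier results of these data known. The text names all 10 members, up to 4 genes per list with the largest called changes with the combination, genes that overlap a member or start within 1 kb of one, snoRNA genes inside members, and the 5 genes most correlated with the members' mean. Members of a list that did not pass, or that went against its other members, were named after their values were seen. Sequences came from GENCODE release 44 and RefSeq (GRCh38.p14). Some sequences and overlapping genes under this rule are not reported here. Alternatives were DESeq2 1.42.0, other scalings, filters and thresholds, the groups compared alone, a replicate block, the sets of replicates 1 to 3 and 4 to 6, and each library left out in turn.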

Additional observations from a re-analysis of the deposited data

Results flagged for a closer look

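SNHG6 in combination replicate 3 stood apart from the other libraries of its group. It was at 11.9 CPM, and the others lay between 14.04 and 15.3 CPM, so that on the log2 CPM scale its gap to the nearest library was 0.655 of the whole range of the group, above Dixon's 95% critical value for 6 samples. This was the only flag in 40 groups of 6 libraries (10 genes in 4 groups), where chance gives about 1 in 20 groups. Without this library SNHG6 was at -0.15 with the combination (adjusted p = 0.13) in place of -0.20 (adjusted p = 0.039).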

How the results depend on the processing

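Under the alternatives other than leaving out 1 library, fits on part of the libraries included, 643 single-gene values kept direction and side of the limit, 47 lost the call, 5 gained it and 15 changed sign. With a fold cut-off of 1.5, the number of hosts called was 0 with EGCG, 0 with resveratrol, 1 with the combination (SNHG12), 0 for the combination against resveratrol and 0 against EGCG. Over all 15476 genes that cut-off left 28, 1514, 1842, 70 and 1546 calls, of which 15, 390, 578, 40 and 456 were lower. The EGCG count was also 0 at an adjusted p under 0.05, with every gene of at least 1 count tested, with the DESeq2 Wald test, and within replicates 1 to 3 or 4 to 6. The combination against resveratrol gave 1 at an adjusted p under 0.05 and 0 within either set of replicates. Leaving out 1 library gave 0 to 1 hosts with EGCG, 9 to 10 with resveratrol, 8 to 9 with the combination, 0 to 3 for the combination against resveratrol and 8 to 9 against EGCG.
Values that changed sign reached 0.15, for EPB41L4A-AS1 in the interaction within replicates 4 to 6. With EGCG, SNHG1 was 0.040, SNHG8 -0.02175, ZFAS1 -0.0115 and EPB41L4A-AS1 0.02505 within replicates 1 to 3, and SNHG6 was 0.0699 within replicates 4 to 6. GAS5 with the combination was 0.0554 under library size and 0.0641 within replicates 1 to 3. Against resveratrol, SNHG12 was 0.0909 within replicates 1 to 3 and SNHG15 was -0.0808 within replicates 4 to 6. For the interaction, SNHG6 was -0.0112 under library size, -0.0014 with every gene of at least 1 count and -0.0753 within replicates 4 to 6. There SNHG5 was -0.0041 and EPB41L4A-AS1 0.15, and SNHG8 was 0.0049 within replicates 1 to 3. Leaving out 1 library, ranges that crossed 0 were -0.0293 to 0.0074 for SNHG1, -0.0131 to 0.0251 for SNHG16 and -0.021 to 0.0323 for SNHG8 with EGCG, -0.064 to 0.0041 for GAS5 with the combination, -0.0234 to 0.048 for SNHG15 and -0.08505 to 0.0044 for SNHG6 against resveratrol, and -0.0513 to 0.0619 for SNHG6 and -0.106 to 0.0235 for EPB41L4A-AS1 in the interaction. The cause was not tested.
Same-numbered libraries of different groups deviated together only weakly, with a median r of 0.05 (-0.01 to 0.13 over 36 pairs). The median r was 0.03 for other numbers within the same set of 3 and -0.04 between the sets. Of the 24 libraries, 0 correlated best with their own number in every other group. With the replicate block the counts were 1 with EGCG, 9 with resveratrol, 9 with the combination, 3 for the combination against resveratrol (SNHG5 gained, adjusted p = 0.033), 9 against EGCG (GAS5 gained, adjusted p = 0.056) and 0 for the interaction. Calls over all genes rose under the block as well, from 273 to 370 with EGCG, from 1217 to 1520 for the combination against resveratrol and from 8950 to 9136 against EGCG. EPB41L4A-AS1, SNHG12 and SNHG6 had the fewest reads of the 10 hosts, at means of 66.2, 105 and 132 raw counts per library. The part of depth in their calls was not tested.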
